A study of Mus musculus with 8 samples.

Results

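The Ly49 receptors are a family of C-type lectin-like proteins on the surface of mouse NK cells. Members were taken as 10 genes, Klra1 to Klra9 and Klra17, and were found as the non-control probes whose RefSeq accession maps to 1 of these symbols. That gave 15 probes of 55681 on the array, for 9 of the 10 genes. Klra3 (Ly49C) had no probe under this rule and has no value here. Klra4 and Klra8 are the activating members, with 4 probes, and the other 8 genes are inhibitory, with 11 probes. These classes are those of C57BL/6 mice, and the labels do not name the strain of the mice, so the comparison of the classes rests on that assignment.

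The samples were NK cells of the mouse spleen, profiled on 8 Agilent 1-colour arrays. After magnetic isolation both groups were separated by ChAT-eGFP, a green fluorescent reporter of choline acetyltransferase (ChAT), which makes the transmitter acetylcholine. The 4 ChAT_positive samples are cells with the reporter and the 4 ChAT_negative samples are cells without it, each a pool from 2 to 4 mice. The labels name no treatment, and give neither sex nor age. Nothing in the labels says whether pools of a group shared mice, so p-values rest on the spread among these 8 samples, part of which may be technical.

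Inhibitory Ly49 receptors bind MHC class I molecules and carry an immunoreceptor tyrosine-based inhibitory motif in their cytoplasmic tail, through which they recruit phosphatases such as SHP-1 (Ptpn6) and restrain the NK cell. Activating members lack that motif and signal through the adaptor DAP12 (Tyrobp). Each NK cell carries its own combination of members, so a level in a pool reflects both the share of cells with a receptor and the amount per cell. Fewer cells of a type and less RNA per cell cannot be told apart in these pools.

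The promoters of the family are shown as a description of its members. Their part in the differences between the groups was not tested. Promoter sequences of all 10 genes were taken from RefSeq on GRCm38.p6, as 250 bases before and 50 bases after each of 12 annotated starts. A shared stretch was noticed on reading them and was not chosen beforehand. The windows below are 60 bases of the strand of the gene, 5′ to 3′, all before the annotated start. Capitals mark TTTCCTC, which contains TTCC, the reverse complement of the GGAA core that ETS-family factors bind, and GAGGAGG where it follows.
Klra4, chr6:130067313-130067372, minus strand: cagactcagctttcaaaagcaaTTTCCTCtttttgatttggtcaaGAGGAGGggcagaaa
Klra8, chr6:130129941-130130000, minus strand: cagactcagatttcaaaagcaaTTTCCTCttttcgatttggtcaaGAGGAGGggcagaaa
Klra6, chr6:130027036-130027095, minus strand: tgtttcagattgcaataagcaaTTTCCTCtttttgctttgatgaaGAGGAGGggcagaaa
Klra9, chr6:130193113-130193172, minus strand: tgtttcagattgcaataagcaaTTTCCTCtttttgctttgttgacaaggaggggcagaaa
Klra5, chr6:129913277-129913336, minus strand: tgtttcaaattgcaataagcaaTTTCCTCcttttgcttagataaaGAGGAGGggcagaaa
Klra7, chr6:130233374-130233433, minus strand: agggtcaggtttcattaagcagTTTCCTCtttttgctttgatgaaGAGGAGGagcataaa
Klra17, chr6:129876709-129876768, minus strand: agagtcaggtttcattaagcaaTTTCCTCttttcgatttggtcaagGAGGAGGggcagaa
Klra2, chr6:131247396-131247455, minus strand: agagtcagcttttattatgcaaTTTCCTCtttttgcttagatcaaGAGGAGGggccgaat

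TTTCCTC, searched on both strands of the 250 bases before the start, was present at 10 of the 12 member starts and in 9 of the 10 genes, against 7.61% of the 32851 promoters in the table. The longer TTTCCTCTTTT, which contains it, was read from the Klra4 promoter. It was present in 8 of the 10 genes and in 0.128% of all promoters. Both strings were taken from member promoters, so these counts do not test whether the family is enriched for them. The annotated starts of Klra8 share the same stretch, which is counted at each. The 2 activating members were nearly identical over the window, with 58 of 60 bases shared between Klra4 and Klra8 when compared without gaps. Among inhibitory members, Klra6 and Klra9 shared 57 of 60 bases and Klra5 and Klra6 shared 56. The lowest count without gaps was 38 of 60, for Klra17 and Klra4. Klra17 carries an extra base before GAGGAGG, and such a shift lowers a count made without gaps. The count therefore does not show that this pair is the least alike in sequence. These letters were not in the window used for Klra1 or for the other annotated start of Klra7, and the stretch of Klra3 reached past its start and is not printed. A match is a description of sequence and does not show that a factor binds there.

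All 14 Ly49 probes that could be tested had lower means in the ChAT_positive pools. Of these, 6 passed the test and fell, for Klra17, Klra8 (2 probes), Klra7, Klra5 and Klra6, and 0 rose, also at an unadjusted p under 0.05. The test was limma on 32086 probes, each well above background on at least 4 of 8 arrays, with Benjamini-Hochberg adjustment over all of them and a threshold of 0.05. By the same test 1.64% of all probes were lower and 1.46% higher. The Klra17 probe passed the filter only through ChAT_negative, where it is high, and without it 5 of 13 probes fell and 8 of 13 did not overlap. At an unadjusted p under 0.05, 13 of the 14 probes were lower, against 11.9% of all probes tested. The groups did not overlap for 9 of the 14, all lower in ChAT_positive, against 6.45% of all probes. The median log2 fold change of the 14 probes was -0.78, against -0.017 over all probes, and all 14 means were also lower under median scaling, quantile normalization and normexp background correction. Values below are log2 of the processed intensity minus the 75th percentile of the array, and fold changes are ChAT_positive minus ChAT_negative.

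**Figure D1:**
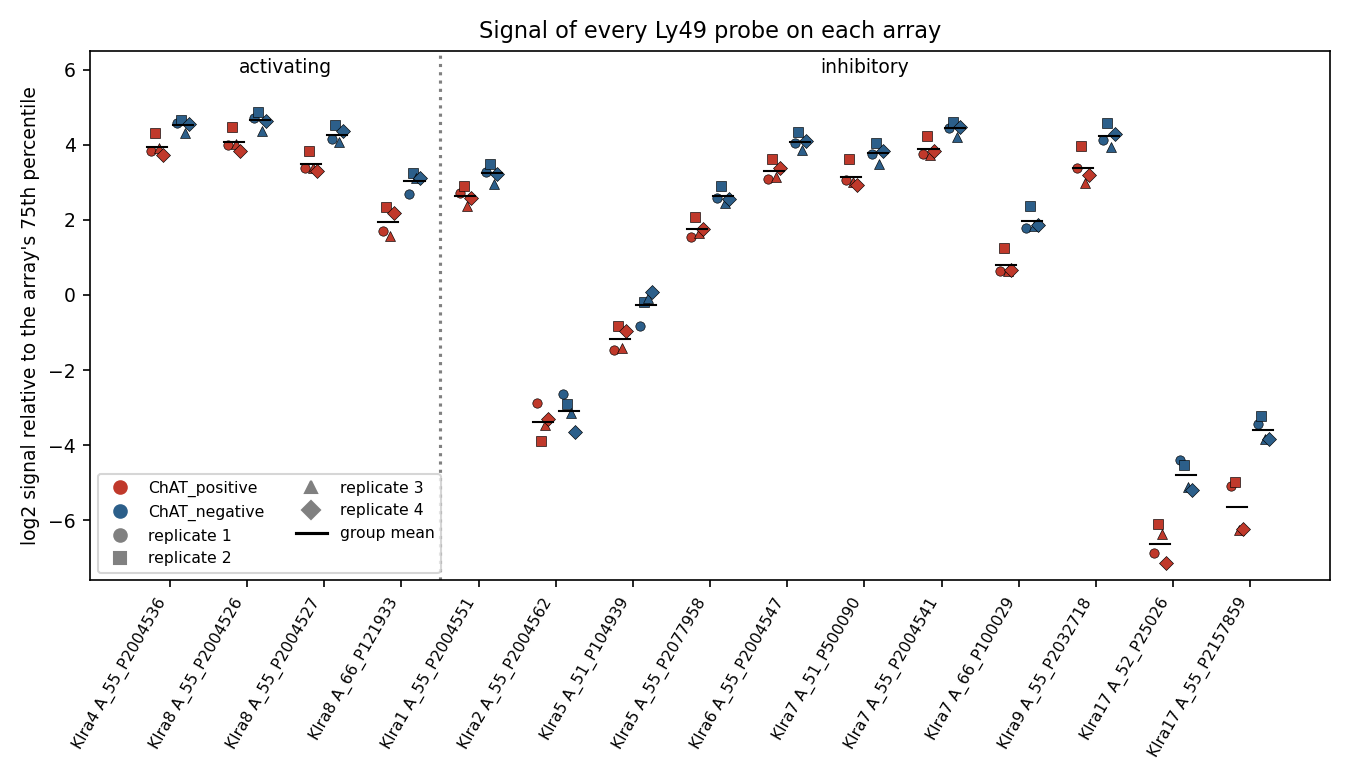
Log2 signal relative to the 75th percentile of each array (vertical axis) for the 15 Ly49 probes (horizontal axis). Each point is 1 array, red for ChAT_positive and blue for ChAT_negative, marker shapes give the replicate number and black lines the group means of 4 arrays. The red means lie below the blue means for all 15 probes, and replicate 2 (squares) is the highest of its group for most probes.

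Klra8 encodes Ly49H, the activating receptor that recognises a glycoprotein of mouse cytomegalovirus on infected cells. Its probe A_66_P121933 gave 1.71, 2.33, 1.57 and 2.17 in ChAT_positive replicates 1 to 4 and 2.68, 3.24, 3.10 and 3.11 in ChAT_negative replicates 1 to 4. Every ChAT_positive pool was below every ChAT_negative pool, and the difference was -1.09 (SE 0.21, n = 4 each, limma adjusted p = 0.0351), or 2.13-fold lower (95% confidence limits 1.53 and 2.95). Probe A_55_P2004527 gave 3.39, 3.84, 3.38 and 3.30 against 4.14, 4.51, 4.07 and 4.35, again without overlap. It fell by 0.79 on the log2 scale (SE 0.17, limma adjusted p = 0.0449), or 1.73-fold. The remaining probe, A_55_P2004526, gave 3.99, 4.48, 4.01 and 3.83 against 4.72, 4.88, 4.36 and 4.63. Here ChAT_positive replicate 2 lay above ChAT_negative replicate 3, and the difference of -0.57 (SE 0.18) did not pass the test (limma adjusted p = 0.115). The 3 probes of this gene thus differed in size by 0.52 on the log2 scale and shared a direction.

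Klra4 encodes Ly49D, the other activating member, which binds MHC class I of some haplotypes. Its 1 probe gave 3.84, 4.31, 3.92 and 3.71 in ChAT_positive and 4.57, 4.65, 4.32 and 4.54 in ChAT_negative pools. The groups did not overlap, but the highest ChAT_positive value lay only 0.017 below the lowest ChAT_negative value. The difference was -0.58 (SE 0.16, 95% interval -0.94 to -0.22) and did not pass the test (limma adjusted p = 0.0837).

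Among inhibitory members, Klra7 encodes Ly49G, and its 3 probes also differed in size. Probe A_66_P100029 gave 0.63, 1.25, 0.63 and 0.67 against 1.78, 2.36, 1.85 and 1.86. The groups were 0.54 apart at their nearest values, and the probe fell by 1.17 (SE 0.20, limma adjusted p = 0.0255), or 2.25-fold (95% confidence limits 1.65 and 3.07). Probe A_51_P500090 gave 3.05, 3.61, 3.00 and 2.93 against 3.76, 4.04, 3.49 and 3.82, a difference of -0.63 (SE 0.19, limma adjusted p = 0.103). Probe A_55_P2004541 gave 3.76, 4.24, 3.71 and 3.83 against 4.44, 4.62, 4.20 and 4.48, a difference of -0.55 (SE 0.16, limma adjusted p = 0.0978). In both of these, ChAT_positive replicate 2 lay above ChAT_negative replicate 3, so the groups overlapped.

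Klra5 encodes Ly49E, a member with little variation between mouse strains that is expressed early in NK cell development. Probe A_55_P2077958 gave 1.55, 2.06, 1.64 and 1.77 against 2.59, 2.90, 2.45 and 2.55. The groups did not overlap, and it fell by 0.87 (SE 0.16, limma adjusted p = 0.0332), or 1.83-fold (95% confidence limits 1.42 and 2.36). Probe A_51_P104939 gave -1.48, -0.83, -1.40 and -0.95 against -0.82, -0.19, -0.078 and 0.069, and its groups were 0.0047 apart. Its difference of -0.91 (SE 0.24) was like that of the other probe in size but did not pass the test (limma adjusted p = 0.072). This probe is printed on 10 spots of each array, and the spots within an array had an SD between 0.044 and 0.21 on the log2 scale, against an SD between arrays of 0.32 in ChAT_positive and 0.39 in ChAT_negative pools.

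Klra6, which encodes Ly49F, gave 3.08, 3.61, 3.13 and 3.39 in ChAT_positive and 4.04, 4.32, 3.85 and 4.11 in ChAT_negative pools. No pools overlapped, and its probe fell by 0.77 (SE 0.17, limma adjusted p = 0.0468), or 1.71-fold (95% confidence limits 1.31 and 2.22). Klra9 encodes Ly49I, an inhibitory receptor for MHC class I. It gave 3.38, 3.97, 2.99 and 3.20 against 4.11, 4.58, 3.94 and 4.29, with ChAT_positive replicate 2 above ChAT_negative replicate 3. The difference of -0.85 (SE 0.23) did not pass the test (limma adjusted p = 0.0836). Klra1 encodes Ly49A, the first member of the family to be described as an MHC class I receptor. It gave 2.71, 2.91, 2.37 and 2.57 against 3.28, 3.49, 2.96 and 3.23, without overlap, and a difference of -0.60 (SE 0.17, limma adjusted p = 0.0847).

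Klra17 and Klra2 encode Ly49Q and Ly49B, inhibitory members known from plasmacytoid dendritic and myeloid cells more than from NK cells. Klra17 had the largest difference of the family. Its probe A_55_P2157859 gave -5.08, -4.97, -6.26 and -6.24 in ChAT_positive and -3.45, -3.23, -3.83 and -3.83 in ChAT_negative pools, and passed the scanner's test for signal well above background on 4 of 4 arrays in ChAT_negative and 0 of 4 in ChAT_positive. It was at least 3.11-fold lower, with the ChAT_positive level set at the higher of its own signal and that array's dimmest probe well above background. The fitted difference was -2.05 (SE 0.34, limma adjusted p = 0.023), and the 95% interval of its fold reached from 2.44 to 7.05, below that bound. The probe entered the test only through the group in which it is high. The other probe, A_52_P25026, reached that level on 3 of 4 arrays in ChAT_negative and 0 of 4 in ChAT_positive, and was not tested. It gave -6.88, -6.11, -6.36 and -7.14 against -4.38, -4.53, -5.10 and -5.18, at least 1.41-fold lower by the same bound. Klra2 gave -2.87, -3.89, -3.45 and -3.30 against -2.64, -2.89, -3.14 and -3.65. Its groups overlapped, and the difference of -0.30 had a 95% interval from -0.91 to 0.32 (limma adjusted p = 0.562).

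Markers of cells in which Ly49Q is known moved with the groups in part. Over all 13607 genes, 248 fell and 208 rose by limma, and 6379 had lower means. At an unadjusted p under 0.05 by limma, 1508 were lower and 1613 higher. Of 12 plasmacytoid dendritic cell markers, all tested, 2 fell (Ccr9, a chemokine receptor, by 2.50 on the log2 scale, and Atp1b1 by 0.83) and 0 rose, with 5 higher at an unadjusted p under 0.05 by limma. The mean level of the list ran from 2.09 to 2.30 in ChAT_positive and from 2.03 to 2.43 in ChAT_negative pools. Siglech, a defining receptor of these cells that was named after its value was seen, had a log2 fold change of -0.13. All 10 tested neutrophil markers of 12 listed had lower means in ChAT_positive pools and 3 fell (Mpo, Cxcr2 and Retnlg), with a mean level of -3.74 to -0.60 against -1.15 to 0.80. Retnlg was well above background on none of the 4 ChAT_positive arrays, entered the test only through ChAT_negative and was at least 3.68-fold lower by its probe. With 1 array left out in turn, Mpo was called in 1 of 8 fits, Cxcr2 in 0 and Retnlg in 2. Of 9 tested monocyte and macrophage markers of 12 listed, 0 were called by limma and 2 were lower and 2 higher at an unadjusted p under 0.05, with a mean level of -1.78 to -0.63 against -1.34 to -0.39. Of 7 tested conventional dendritic cell markers of 8 listed, 2 fell (Itgax and Clec9a) and Wdfy4 rose, with a mean level of -0.86 to -0.41 against -0.28 to 0.058. Clec9a too entered only through ChAT_negative, with 0 of 4 ChAT_positive arrays well above background, and was at least 2.16-fold lower by its probe. In the fits with 1 array left out, Ccr9 and Itgax were called in 8 of 8, Atp1b1 and Clec9a in 1 each and Wdfy4 in 0. The part of these cells in the Klra17 difference was not tested.

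**Figure D2:**
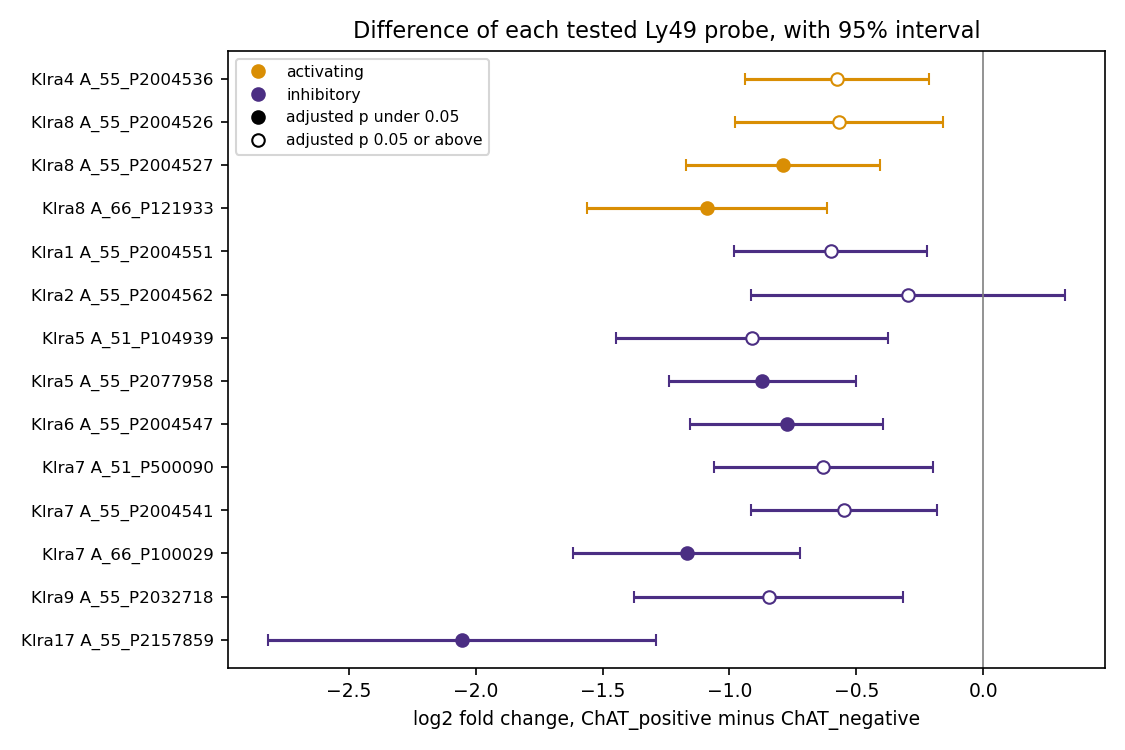
Log2 fold change, ChAT_positive minus ChAT_negative (horizontal axis), of the 14 tested Ly49 probes, with 95% intervals from limma. Orange marks activating and purple inhibitory members, and filled points passed an adjusted p of 0.05. All 14 points lie below 0, the interval of Klra2 crosses 0, and activating and inhibitory probes occupy the same range apart from Klra17 and Klra2.

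Activating and inhibitory members overlapped in the size of their differences. The 4 activating probes had log2 fold changes from -1.09 to -0.57 with a median of -0.68, and 2 of 4 fell. The 10 tested inhibitory probes ran from -2.05 to -0.30 with a median of -0.81, and 4 of 10 fell. Without Klra17 and Klra2, 8 inhibitory probes remained, from -1.17 to -0.55, also with a median of -0.81, and 3 of 8 fell. The activating range lies inside that of these 8 probes. With each gene given by its brightest tested probe, 3 of 9 genes fell (Klra5, Klra6 and Klra17), or 2 of 8 without Klra17. Over all 13607 genes, 1.82% were lower. By that probe the activating genes stood at -0.58 and -0.57. For Klra8 and for Klra7 the brightest probe had the smallest difference of 3 and was not called. With the mean of a gene's probes, the median was -0.70 for activating and -0.78 for inhibitory genes. Whether the classes differ in size was not tested, since the members were chosen with results known. The paralogs are close in sequence and their probes may share signal, which was not tested because probe sequences were not used here.

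The probes varied together within a group. ChAT_positive replicate 2 had the highest value of its group for 13 of 14 tested probes, the exception being Klra2, and a mean deviation of 0.34 from the group mean. ChAT_negative replicate 2 was the highest of its group for 12 of 14, with a mean deviation of 0.24. ChAT_positive replicate 3 was below the group mean for all 14 probes, and ChAT_negative replicate 3 was the lowest of its group for 10 of 14. The arrays numbered 2 also had the lowest mean neutrophil marker level of their groups, at -3.74 and -1.15. The same held for basophil and mast cell markers, at -4.09 and -0.19, where the other arrays ran from -1.86 to -1.52 in ChAT_positive and from 1.31 to 1.93 in ChAT_negative pools. Replicate 2 of ChAT_positive and of ChAT_negative was also lowest for monocyte and macrophage (-1.78 and -1.34), erythroid (-0.95 and -0.20) and platelet markers (-2.07 and -0.63). It was the highest of its group for other lectin-like receptors of the NK gene complex (1.28 and 1.82) and for T cell markers (-0.50 and -0.35). The pattern of the arrays numbered 2 was thus not particular to the Ly49 probes. The part of these cells in the Ly49 values was not tested.

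**Figure D3:**
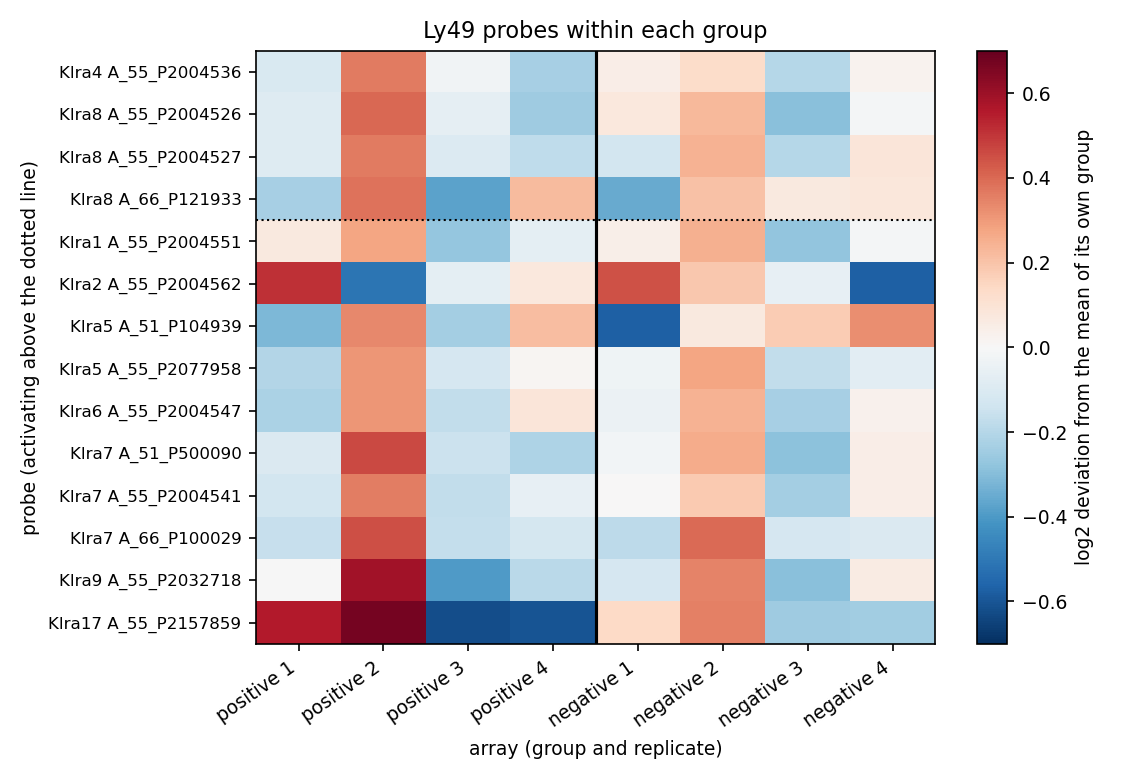
Log2 deviation of each array from the mean of its own group (colour, red above and blue below) for the 14 tested Ly49 probes (rows) on the 8 arrays (columns). Replicate 2 is above the mean for 13 of 14 probes in ChAT_positive and 14 of 14 in ChAT_negative, and ChAT_positive replicate 3 is below it for all 14.

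Most of the calls were lost when any array but ChAT_positive replicate 2 was left out, while the direction was kept. With any 1 of the 8 arrays left out, all 14 probes still had lower means in ChAT_positive. For the 9 probes whose groups did not overlap, leaving out 1 array could not reverse the direction. The number of member probes called lower was 1 without ChAT_positive replicate 1, 7 without replicate 2, and 0 without replicate 3 or replicate 4. It was 3 without ChAT_negative replicate 1, 1 without replicate 2, and 0 without replicate 3 or replicate 4. Over these fits between 0.318% and 1.28% of all probes were lower, against 1.64% with all 8 arrays. Each fit had 1 array fewer, so fewer calls are expected by construction. The Klra7 probe A_66_P100029 was called in 3 of the 8 fits, with a difference between -1.32 and -1.04 and a highest adjusted p of 0.0746, without ChAT_positive replicate 3. The Klra17 probe and the Klra8 probe A_66_P121933 were each called in 2 of 8. Klra9 passed the test without ChAT_positive replicate 2 (limma adjusted p = 0.0449). Simulated data had independent values at the measured spread, with 200 of 32086 probes changed. There the procedure recovered 38% of those changed 2-fold and 86% of those changed 4-fold. In the real arrays 525 probes were lower and 468 higher by the test. Deviations of arrays of one number had correlations from 0.089, for replicate 4, to 0.68, for replicate 2. The simulated rates therefore need not hold for them.

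**Figure D4:**
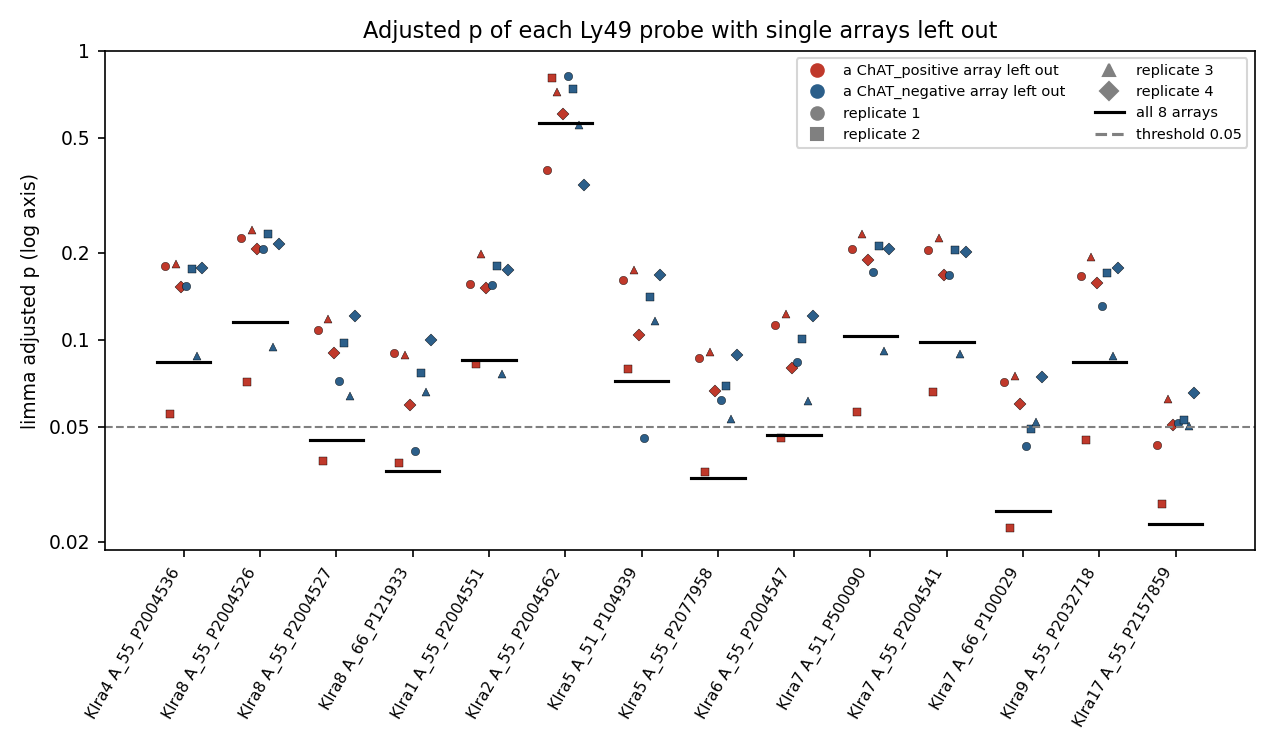
Limma adjusted p (vertical, log axis) of the 14 tested Ly49 probes with all 8 arrays (black lines) and with each array left out in turn (points, red for a ChAT_positive and blue for a ChAT_negative array, shapes for the replicate number). The dashed line is the threshold of 0.05. Leaving out ChAT_positive replicate 2 (red squares) kept all 6 calls and brought Klra9 below the line, and most other points of the called probes lie above it.

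Outside the 10 genes, 2 further Ly49 loci had probes. Klra16 fell by its brightest probe, from 4.12, 4.48, 4.13 and 4.34 in ChAT_negative to 3.32, 3.77, 3.34 and 3.42 in ChAT_positive pools, a difference of -0.80 (SE 0.15, limma adjusted p = 0.0351). That call was kept only where ChAT_positive replicate 2 was the array left out. The other 2 Klra16 probes did not pass the test, with differences of -0.80 (SE 0.18, limma adjusted p = 0.0554) and -1.18 (SE 0.28, limma adjusted p = 0.0586), and the groups overlapped for neither. For Klra10 the difference was -0.95 (SE 0.22, limma adjusted p = 0.0536). Both are close paralogs of the members, and their probes may share signal with them.

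Some of the other lectin-like receptors encoded in the NK gene complex also fell. Of 17 tested, 6 fell and 0 rose, 15 had lower and 2 higher means, 13 were lower at an unadjusted p under 0.05, and the median log2 fold change was -0.86, against 0.026 over all 13607 genes. Klrb1c, which encodes NK1.1, fell by 1.60 (SE 0.14, limma adjusted p = 0.00347), and Klrk1, which encodes the activating receptor NKG2D, fell by 1.14 (SE 0.15, limma adjusted p = 0.0133). Klrb1a and Klri2 fell by 1.02 and 0.96. With 1 array left out in turn, Klrb1c and Klrk1 stayed below the threshold in 8 of 8 fits, Klrb1a in 5 and Klri2 in 2. The number of these lectin genes called lower went from 2, without replicate 1 or 3 of ChAT_positive or replicate 4 of ChAT_negative, to 7, without ChAT_positive replicate 2. Of 12 NK cell markers, all tested, 2 fell, Klrb1c and Klrk1, which stand in both lists, and all 12 had lower means, with a median of -0.55. At an unadjusted p under 0.05 by limma, 10 of the 12 were lower, against 1508 of all 13607 genes. By the adjusted test 1.82% of all genes were lower. The mean level of the NK markers was 2.79 to 3.26 in ChAT_positive and 3.46 to 3.71 in ChAT_negative pools. Its part in the Ly49 differences was not tested.

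Adaptors and enzymes downstream of the receptors were mostly not called. Of 18 tested genes of activating signalling 0 were called by limma, with 6 lower and 1 higher at an unadjusted p under 0.05 and a median of -0.17. Of the 18, 13 had lower and 5 higher means. Over all 13607 genes, 1508 were lower and 1613 higher at that unadjusted p. Tyrobp, the DAP12 adaptor of Ly49D and Ly49H, gave 4.51, 5.09, 4.41 and 4.42 against 5.26, 5.47, 4.99 and 5.47, with ChAT_positive replicate 2 above ChAT_negative replicate 3. Its difference was -0.69 (SE 0.20, limma adjusted p = 0.0896), and that of Fcer1g, the Fc receptor gamma chain, was -0.57 (limma adjusted p = 0.0698). Cd247 and Hcst, adaptors named after their values were seen, stood at -0.82 and -0.49 (limma adjusted p = 0.0841 and 0.146). Klra9 and Klra4, Ly49 genes that were also not called, stood at -0.85 and -0.58. Of 13 tested genes of inhibitory signalling, 1 rose, the Src-family kinase gene Lyn, by 0.76 (SE 0.16, limma adjusted p = 0.0478), and 0 fell, with 3 lower at an unadjusted p under 0.05. Lyn was called in 0 of the 8 fits with 1 array left out. B cells express Lyn. While 208 of all 13607 genes rose, 6 of 10 tested B cell markers did, with a mean level of 1.80 to 2.20 against 0.99 to 1.34. That count was 2 under median scaling, 2 without replicate 1, 3 or 4 of ChAT_positive or replicate 3 or 4 of ChAT_negative, 3 without replicate 1 or 2 of ChAT_negative and 4 without ChAT_positive replicate 2. The part of B cells in the Lyn difference was not tested. Ptpn6 was named after its value was seen and had a log2 fold change of 0.23 (limma adjusted p = 0.43).

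**Figure D5:**
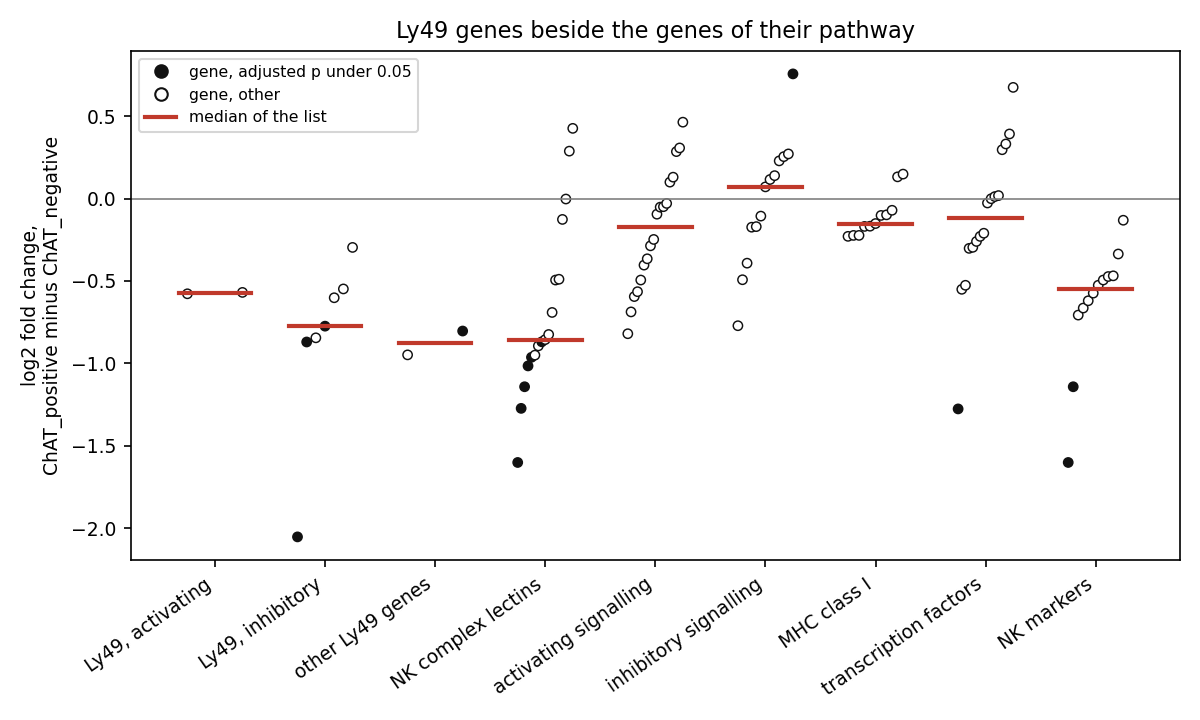
Log2 fold change, ChAT_positive minus ChAT_negative (vertical axis), of each gene by its brightest tested probe, for the Ly49 genes and the lists of their pathway. Filled points passed an adjusted p of 0.05 and red lines are list medians, which lie at -0.57 and -0.77 for activating and inhibitory Ly49 genes, -0.86 for the NK complex lectins and between -0.17 and 0.070 for signalling genes, MHC class I genes and transcription factors.

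Genes of MHC class I molecules, some of them ligands of the inhibitory members, and of their peptide loading did not pass the test. Of 11 tested genes 0 were called by limma and 0 had an unadjusted p under 0.05. B2m, the light chain of these molecules, had a log2 fold change of -0.10 (SE 0.14), and H2-T23 one of -0.22 (SE 0.17). H2-K1 and H2-D1, named after their values were seen, had log2 fold changes of -0.23 (SE 0.16) and -0.17 (SE 0.17). Among 16 tested transcription factors of NK cells, 1 fell, Prdm1, which encodes Blimp-1 of late NK maturation, by 1.28 (SE 0.23, limma adjusted p = 0.0319), and 0 rose. Its call held in 2 of 8 fits with 1 array left out. Tcf7, which encodes TCF-1, a factor required for normal Ly49A expression, was named after its value was seen and had a log2 fold change of 0.012 (SE 0.16).

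Between 50.2% and 63.2% of non-control spots per array were well above background, with 0 spots saturated. Precision is limited by the number of arrays. Chat, read as a check on the sort and with values known, rose in ChAT_positive pools, from 2.65 to 3.75 in mean log2 level (limma adjusted p = 0.0333). That call held in 1 of 8 fits with 1 array left out, with a highest adjusted p of 0.0975, and Chat was higher in ChAT_positive in all of them. Its groups did not overlap, so leaving out 1 array could not reverse that direction. Each group was hybridised on a separate slide, so a slide effect and the effect of the reporter group cannot be told apart.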

How the data were processed

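Per the file headers, the deposited scanner files hold spot intensities made with Agilent Feature Extraction 11.5.1.1, with background already subtracted and no scaling between arrays, on a design annotated on mm9. The deposited value table holds log2 values of the same arrays, from a rule not given in the sources used here, and served as an alternative. The flags and control type per spot, per the file headers, were used to filter. Controls and 1344 spot values flagged as outliers were dropped, 51 probe values with every spot flagged were kept, and the log2 values of the spots of a probe were averaged. Each array was scaled to its 75th percentile over non-control probes. Of 55681 probes, 26762 were named with 1 symbol through RefSeq accessions of GRCm38.p6. Those well above background on at least 4 arrays (32086) were fitted with limma 3.58.1 in R 4.3.3 (lmFit, eBayes, two-sided, no block). For lists, the brightest tested probe stood for a gene. Named were every member probe and, of each other list, up to 4 called genes by adjusted p or the 2 brightest; other names are said to be chosen after their values were seen. Members and lists were chosen with earlier results of these data known. The procedure was tested on simulated data. Alternatives changed the scaling, the background correction, the filter, the probe per gene, the variance model, the weights, the block, the value source and the arrays used.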

Additional observations from a re-analysis of the deposited data

Results flagged for a closer look

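Of 30 groups of 4 arrays examined, 15 probes in 2 groups, 4 held an array far from the other 3, by the gap to its nearest neighbour over the range of the group, set against the 95% critical value of Dixon's test. Chance gives about 1 in 20. ChAT_positive replicate 2 was the high array for the Klra8 probe A_55_P2004527 (0.844) and for the Klra7 probes A_51_P500090 (0.832) and A_66_P100029 (0.932). ChAT_negative replicate 2 was the high array for the Klra7 probe A_66_P100029 (0.859).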

How the results depend on the processing

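All 14 probes kept lower means in ChAT_positive under every alternative that gave them a value (265 values over 19 settings, 58 that lost the call and 15 that gained it). Changing the filter, the variance model or the block leaves a fold change as it was, so direction could not change there. Of member probes, 6 were called lower with all arrays, and the number ranged from 0 to 7 with single arrays left out. It was 2 under median scaling, 0 with no filter on dim probes, 3 with a filter at 1 of 8 arrays (where the second Klra17 probe was tested too), 10 with a trended and robust variance and 0 without both arrays numbered 3. Of member genes by brightest probe, 3 were called lower, with a range of 0 to 4 over single arrays left out. It was 1 under median scaling, 0 with no filter, 1 with a filter at 1 of 8 arrays, 5 with the mean of the probes of a gene, 6 with a trended and robust variance and 0 without both arrays numbered 3. Deviations of arrays of one number had correlations from 0.089 to 0.68. Of the numbers, 3 of 4 matched best with themselves, which did not meet the rule for pairing (every pair over 0.1). With the replicate number as a block, 13 probes and 8 genes were called lower, where 7.56% of all probes were. The median activating fold change of -0.68 became -0.47 under median scaling, which moves the median of all probes from -0.017 to 0.20, and ran from -0.81 to -0.62 with single arrays left out. Genes called over the other lists numbered 36, 20 under median scaling, 13 with no filter, 18 with a filter at 1 of 8 arrays, 68 with the replicate block, 2 without both arrays numbered 3 and 10 (without ChAT_negative replicate 4) to 31 (without ChAT_positive replicate 2) with single arrays left out. Fewer samples or more dim probes tested enter these fits by construction. The cause of the other shifts was not tested.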
